A study of Drosophila melanogaster with 96 samples.

Results

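A set of 94 transcripts was followed in fly heads, each with a mean level at 29 °C at least 2 times its mean at 18 °C and an intermediate mean at 25 °C. Levels are in CPM, the count of a gene per 1000000 counts of its library. A row of the count table entered the set if its mean at 29 °C was 5 CPM or more, if that mean was at least 2 times the 18 °C mean, and if the 25 °C mean lay between them. Of 17610 rows, 8404 reached 5 CPM, 134 of those also reached the ratio, and 133 met all conditions. Symbols of 14 gene families described by prefix (heat shock proteins, cytochromes P450, odorant-binding proteins, long non-coding RNAs and others) were then set aside, which removed 39 rows and left the 94. The mirror rule, with means at least 2 times lower at 29 °C, held for 62 genes. Since the 29, 25 and 18 °C means chose the members, their differences between temperatures are given as a description and were not tested.

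Fruit flies take the temperature of their surroundings, and heat is met by chaperones, which hold and refold damaged proteins. The head holds the compound eyes and the brain together with muscle, cuticle-secreting epidermis and a fat body, the insect tissue that stores fat, breaks down amino acids and secretes antimicrobial peptides under control of the Toll and Imd pathways. In bulk RNA from such a mixture, fewer cells of a type and less RNA per cell cannot be told apart.

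Heads came from adult flies of the ISO1 strain, labelled male in all libraries. The 4 groups were a light-dark cycle at 25 °C with 12 h of light a day (LD), and constant darkness (DD) at 18, 25 and 29 °C. Each group had 24 libraries, made from polyadenylated RNA of whole heads every 4 h on days 4 and 5, with 2 biological replicates at each of 12 time points. The labels name no batch, incubator or age, so effects of an incubator and of its condition cannot be told apart.

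Library totals were 17.3 to 34.7 M counts (M is 1000000), with a median of 21.1 M, and no 2 libraries were identical. Of the labelled tissue's markers, 24 of 25 eye markers and all 12 neuron markers exceeded a mean of 1 CPM in at least 1 group. Against the male label, the yolk protein gene Yp1, a product of the female fat body, had medians of 16300, 17600 and 15900 CPM at 18, 25 and 29 °C in darkness. The male-specific RNA roX1 was present too, at medians of 384, 535 and 593 CPM in the same order. Of 15 female markers, 10 had means under 1 CPM in all 4 groups. Besides Yp1, Yp2 and Yp3, that list held eggshell and oocyte genes, so low values in it do not decide the sex of heads. The sex makeup of the libraries and its part in the results were not tested. Some tissue markers moved with temperature. The summed eye markers had a median of 99382 CPM at 29 °C against 78131 CPM at 18 °C. In the same order muscle markers had 8089 and 6624 CPM, and glia markers 2319 and 3401 CPM. Fat body markers, which include Yp1, Yp2 and Yp3, had 48077 and 54780 CPM. Of these, Yp2 had 6890 and 10800 CPM and Yp3 13400 and 12900 CPM. Of 13 fat body markers tested outside the set, 4 were higher and 5 lower at 29 °C (edgeR quasi-likelihood, Benjamini-Hochberg adjusted p under 0.05). Over all genes tested, 38.0% were higher and 36.5% lower. The part of these tissue markers in the levels of the 94 transcripts was not tested.

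The members together made up 10344 CPM at 29 °C against 4198 CPM at 18 °C. The ratio of the means ranged from 2.0 to 19.5 with a median of 2.52. It lay between 2 and 3 for 64 members, between 3 and 4 for 16, and at 4 or more for 14. At 29 °C the median member had 16.7 CPM, with 27 members under 10 CPM and 16 at 100 CPM or more. For 68 of the 94, every 29 °C library exceeded every 18 °C library, which was true of 5.08% of the 10702 genes tested. The 29 °C mean was higher at all 12 time points for 90 members, against 22.7% of all genes tested, and at 11 time points for CG43920, CecA1, CecA2 and CG43085. Both shares follow from the way the set was chosen.

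**Figure D1:**
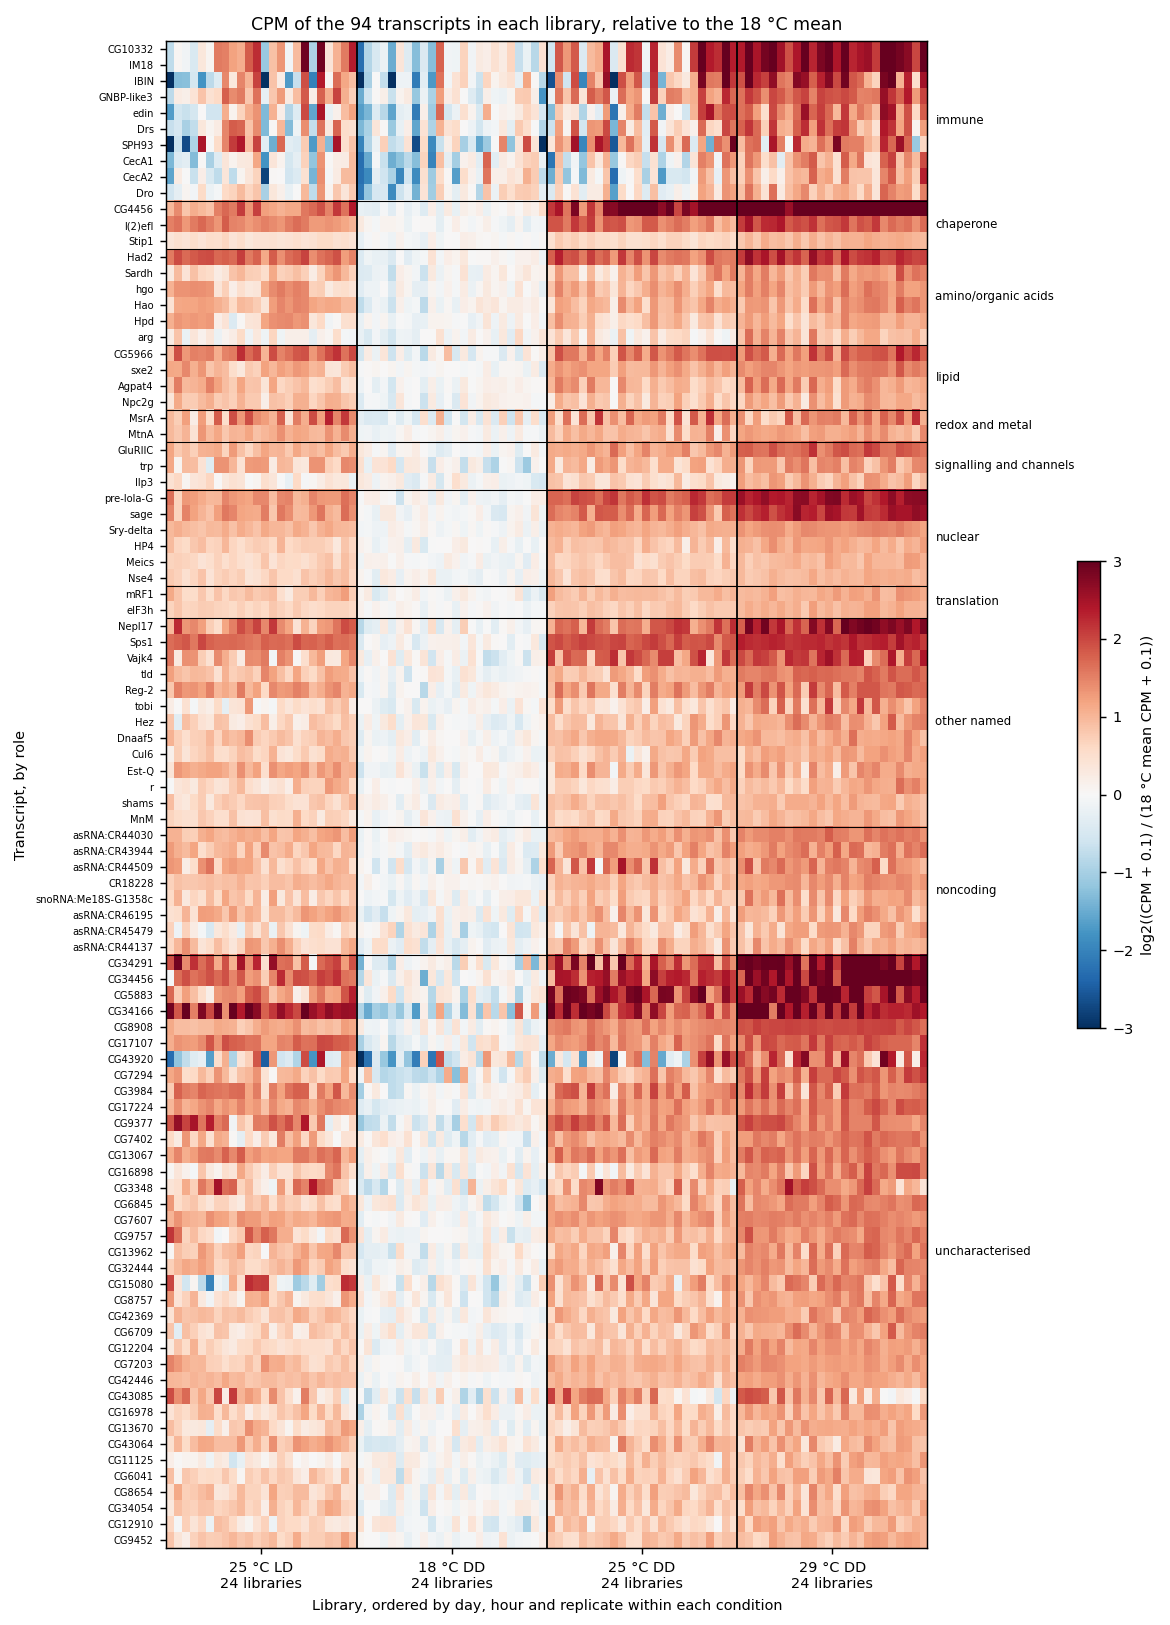
Level of each of the 94 transcripts (rows, grouped by role) in each of the 96 libraries (columns, ordered by day, hour and replicate within a condition), as log2 of CPM + 0.1 relative to the 18 °C mean; red is higher and blue lower, and the colour scale is cut at a difference of 3 in either direction. Rows of the immune group are uneven from library to library, whereas rows of the nuclear group are even within each condition.

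The threshold cut through a continuous range of ratios. Just inside it lay Stip1 at 2.0012, Nse4 at 2.0114 and CG9452 at 2.0204. Just outside lay CG4313 at 1.9856, Non1 at 1.987 and eIF3m at 1.9931, the last a subunit of the same translation initiation complex as the member eIF3h.

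Roles were given to 57 members after the set was known, and 37 stayed uncharacterised. There were 10 transcripts of immunity, 3 grouped as chaperones, 6 of amino and organic acid breakdown, 4 of lipid metabolism and 2 of redox and metal defence. A further 3 were of signalling and channels, 6 of nuclear proteins, 2 of translation, 13 other named genes and 8 non-coding RNAs or pseudogenes. The groups differed in how even they were from library to library. The coefficient of variation at 29 °C had a median of 19.1% over all members, 41.8% in the immune group and 9.96% in the nuclear group. All 6 nuclear members and 3 of 10 immune rows had ranges at 29 and 18 °C that did not overlap. These immune rows were GNBP-like3 and the pair IM18 and CG10332, whose values are identical and count as a single measurement. Over the whole set 68 members had such ranges. Among all genes tested, 5.08% had every 29 °C library above every 18 °C library. The difference between the nuclear and immune groups was not tested.

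Grouped here with the chaperones, CG4456 had the highest ratio of the set. It lies on chromosome 3L at 9372722 to 9374964 (plus strand, BDGP6.54) and is listed by RefSeq under the older name Hsp67Bb. Whether it encodes a chaperone was not examined. Its level was 4.52 to 8.65 CPM (median 5.96) at 18 °C, 14.5 to 105 CPM (median 42.4) at 25 °C and 36.3 to 220 CPM (median 116) at 29 °C. The 3 ranges at 18, 25 and 29 °C stood apart at the cold end and overlapped between 25 and 29 °C, and the 29 °C mean was 19.5 times the 18 °C mean. Exons of CG4456 overlap Hsp22 on the same strand over 90.1% of their length, and both genes carry identical values in all 96 libraries, so the level cannot be assigned to either. At 29 °C the second replicate was above the first at 12 of 12 time points, with means of 144 and 86.7 CPM, so the ratio was 22.1 in replicate 2 and 16.3 in replicate 1.

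The small heat shock family member l(2)efl (2R, 23684651 to 23685543) had 17.9 to 27.4 CPM (median 22.6) at 18 °C, 41.3 to 97.0 CPM (median 66.4) at 25 °C and 57.6 to 126 CPM (median 82.1) at 29 °C. No library at 25 or 29 °C was as low as the highest at 18 °C. Stip1 (2L, 295122 to 297449) encodes a co-chaperone that joins Hsp70 to Hsp90, and it had 48.5 to 66.8 CPM (median 57.8), 75.4 to 100 CPM (median 86.3) and 100 to 131 CPM (median 118) at 18, 25 and 29 °C. Its 3 groups formed steps, and those at 25 and 29 °C met at 100 CPM, with a ratio of 2.0 and a coefficient of variation of 7.85% at 29 °C.

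Of 19 tested genes on a chaperone list, with the members removed, 9 were higher and 3 lower at 29 °C than at 18 °C (edgeR quasi-likelihood, Benjamini-Hochberg adjusted p under 0.05), where 38.0% of all tested genes were higher and 36.5% lower (74.5% in either direction). The lower count was 5 with DESeq2 or its size factors, 5 without replicate 2 and 6 with a replicate block. The median log2 difference of these genes was -0.02, against 0.01 over all genes tested. Higher genes included Cdc37, an Hsp90 co-chaperone, at 71.5 against 44.9 CPM, and DnaJ-1, an Hsp40 protein, at 205 against 129 CPM, both picked after their values were seen. Genes that met the rule of the set had been removed from this count. The list also held the member shams, which modifies the Notch receptor with xylose and is no chaperone, at a mean of 12.7 ± 1.19 CPM at 29 °C against 6.14 ± 0.998 CPM at 18 °C (SD, n = 24 each).

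The immune members were the antifungal peptide gene Drs, the cecropins CecA1 and CecA2, drosocin (Dro), edin, IBIN, IM18 with the overlapping CG10332, GNBP-like3 and the serine protease homologue SPH93. Most of them are induced in infected flies. IM18 and CG10332 share all exonic bases (2R, 23600914 to 23601773, minus strand) and identical values, and are 1 measurement. It read 0.304 to 6.51 CPM (median 1.65) at 18 °C, 1.18 to 21.1 CPM (median 5.99) at 25 °C and 7.20 to 27.6 CPM (median 12.1) at 29 °C. The 29 and 18 °C ranges did not meet, while 25 °C libraries spread across both.

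Drs (3L, 3369556 to 3369942) had 9.49 to 57.9 CPM (median 27.0) at 18 °C, 10.8 to 112 CPM (median 45.2) at 25 °C and 30.2 to 148 CPM (median 89.5) at 29 °C. Ranges overlapped, and 18 of 24 libraries at 29 °C lay above the highest at 18 °C. Dro (2R, 14745961 to 14746714) had 21.9 to 176 CPM (median 83.2), 31.3 to 246 CPM (median 114) and 117 to 325 CPM (median 205) at 18, 25 and 29 °C. Here 17 of 24 libraries at 29 °C exceeded the 18 °C maximum.

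IBIN, a short gene named for its induction by infection (2R, 17671068 to 17671295), had 0.23 to 9.37 CPM (median 2.74) at 18 °C, 0.180 to 24.3 CPM (median 7.62) at 25 °C and 4.32 to 28.7 CPM (median 13.7) at 29 °C. Libraries at 25 °C covered nearly the whole span of the other temperatures. For edin the medians were 5.34, 7.60 and 19.5 CPM, and for SPH93 they were 2.52, 8.83 and 10.5 CPM. At the low end, CecA1 had medians of 2.98, 4.10 and 7.61 CPM and CecA2 of 3.02, 3.04 and 6.05 CPM, and 5 and 3 of their 24 libraries at 29 °C exceeded the highest library at 18 °C. The cecropin copies lie 882 bases apart on 3R and are similar in sequence, so the counting may have divided reads between them.

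**Figure D2:**
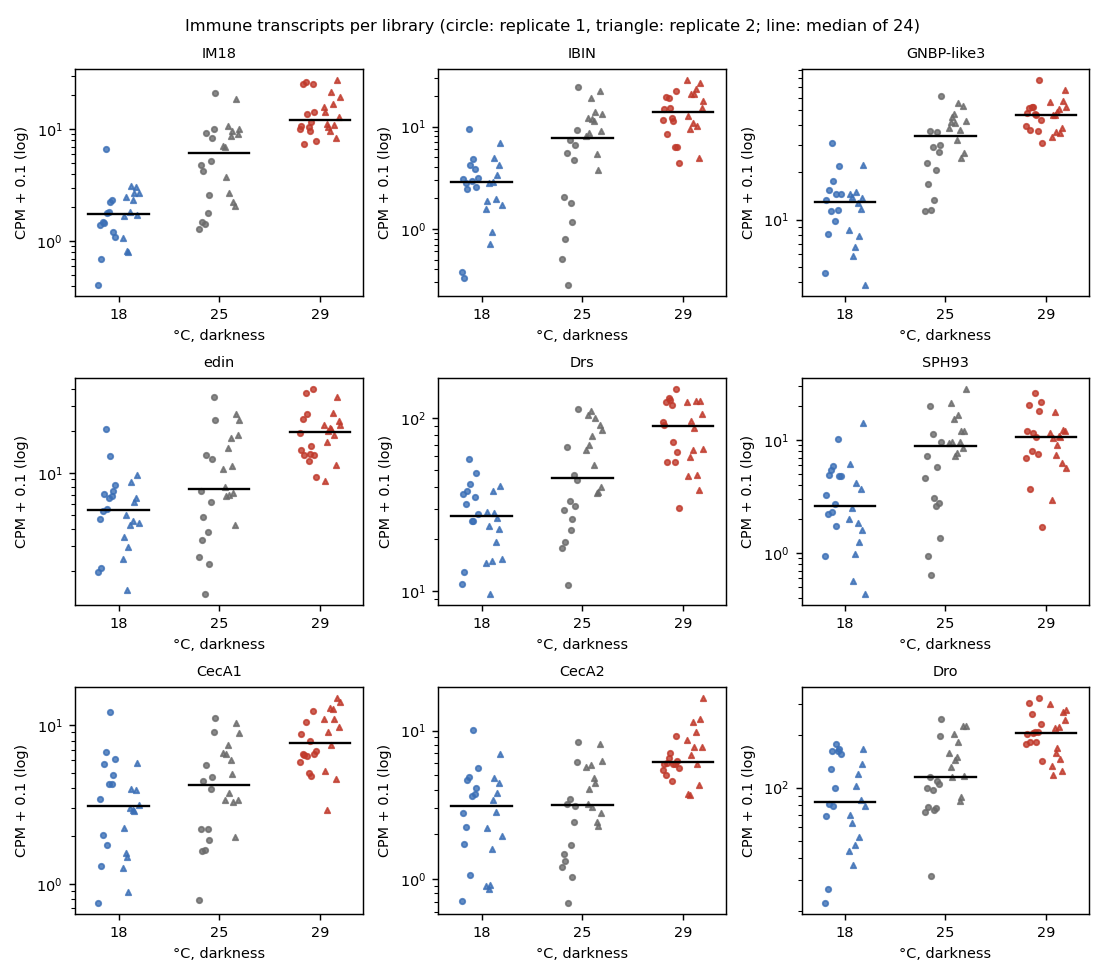
CPM + 0.1 on a log axis of 9 immune transcripts at 18, 25 and 29 °C in darkness; each point is a library (circle for replicate 1, triangle for replicate 2) and the line is the median of 24. Medians are higher at 29 °C in each panel, and at 25 °C the lowest points are mostly circles; CG10332 has the same values as IM18 and is not drawn.

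Immune members varied together within a condition. In darkness at 25 °C, 7 of 24 libraries had at most 1 of the 9 distinct immune transcripts above its own median, and 6 of these were replicate 1. Another 7 libraries had at most 1 below its median, and 6 of these were replicate 2. In the light-dark cycle there were 10 and 10 such libraries, at 29 °C 8 and 6, and at 18 °C 6 and 4. CG43920, an uncharacterised member on 2R with 2.39 to 16.5 CPM (median 6.95) at 29 °C against 0.00 to 8.43 CPM (median 1.45) at 18 °C, was below its own median in all 7 low libraries at 25 °C in darkness and above it in all 7 high ones. At 29 °C it was below its median in 6 of 8 low libraries and above it in 6 of 6 high ones, in the light-dark cycle in 10 of 10 and 9 of 10, and at 18 °C in 6 of 6 and 4 of 4. CG43920 was picked from the uncharacterised members after its values were seen, so its match with the immune members is a description. The immune transcripts and CG43920 were read from the same libraries, and what the libraries shared was not tested. Hemocyte markers summed to a median of 1170 CPM at 29 °C against 1117 CPM at 18 °C.

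Replicate numbers gave different ratios for some immune genes. CecA1 had a 29 to 18 °C ratio of 3.59 in replicate 2 and 1.67 in replicate 1, CecA2 2.91 and 1.64, and IBIN 6.10 and 3.87. Without replicate 2, CecA1, CecA2 and Dro no longer met the rule, and without replicate 1 SPH93 did not. On day 5 alone CecA1, CecA2 and Dro were again outside it. Of 32 tested immune genes outside the set, 13 were higher and 12 lower at 29 °C (edgeR quasi-likelihood, Benjamini-Hochberg adjusted p under 0.05), shares near those of all genes tested (38.0% higher and 36.5% lower), with a median log2 difference of -0.05. The count of higher genes was 8 without replicate 2 and 8 on day 5 alone.

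Enzymes that break down amino and organic acids formed a group of moderate ratios. Hpd and hgo encode successive steps of tyrosine breakdown (4-hydroxyphenylpyruvate dioxygenase and homogentisate dioxygenase). Hpd (3L, 20438166 to 20439872) had 100 to 154 CPM (median 117) at 18 °C, 134 to 311 CPM (median 208) at 25 °C and 155 to 339 CPM (median 240) at 29 °C. The lowest 29 °C library, at 155 CPM, lay just above the highest 18 °C library. hgo averaged 47.7 ± 7.43 CPM at 29 °C against 19.2 ± 2.95 CPM at 18 °C, Sardh (sarcosine dehydrogenase) 22.2 ± 4.53 against 8.88 ± 1.79 CPM, and Hao (hydroxyacid oxidase) 47.1 ± 9.61 against 19.0 ± 3.95 CPM (SD, n = 24 each).

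Had2, annotated as a hydroxyacyl-CoA dehydrogenase family gene (2R, 14629910 to 14631023), had the highest ratio of these, with 13.4 to 24.5 CPM (median 18.1) at 18 °C, 41.7 to 91.0 CPM (median 54.9) at 25 °C and 58.8 to 117 CPM (median 78.8) at 29 °C. Every library at 25 or 29 °C was above every library at 18 °C. The arginase gene arg had the lowest ratio, at 15.8 ± 3.76 CPM against 7.71 ± 1.61 CPM (29 and 18 °C), and 54.1% of its exonic bases lie opposite exons of the neuronal gene elav, which itself was at 126 CPM against 87.8 CPM. Libraries were strand-specific, but whether the counting kept strands apart is not given in the sources used here. The 29 to 18 °C ratio was 2.05 for arg and 1.43 for elav. How far reads of elav entered the count of arg was not tested.

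Lipid genes included sxe2, a lipase family gene of the head fat body (3R, 16083878 to 16087222), with 104 to 167 CPM (median 141) at 18 °C, 238 to 365 CPM (median 319) at 25 °C and 318 to 506 CPM (median 371) at 29 °C. Its warm and cold libraries did not overlap. CG5966, annotated as a lipase (X, 5988791 to 5992640), had a ratio of 3.39, with medians of 61.8, 188 and 215 CPM. Npc2g, of the sterol-binding Niemann-Pick type C-2 family, had medians of 209, 366 and 445 CPM, and Agpat4, an acyltransferase of phospholipid and triglyceride synthesis, 10.9, 21.2 and 24.9 CPM. Of 18 other lipid genes tested, 5 were higher and 8 lower at 29 °C than at 18 °C by the same edgeR test. Among all genes tested, 38.0% were higher and 36.5% lower.

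MtnA (metallothionein A, which binds copper and other metals) had 441 to 618 CPM (median 497) at 18 °C, 586 to 1469 CPM (median 1024) at 25 °C and 878 to 1398 CPM (median 1154) at 29 °C. Its 25 and 29 °C levels overlapped widely, and 29 °C lay wholly above 18 °C. MsrA, the repair enzyme of oxidised methionine also known as ecdysone-induced Eip71CD, had medians of 69.4, 205 and 224 CPM, and its range at 18 °C reached 183 CPM, so groups overlapped. Of 22 other antioxidant and detoxification genes tested, 11 were higher and 4 lower at 29 °C than at 18 °C (edgeR). All genes tested had 38.0% higher and 36.5% lower. The lower count of the 22 genes was 2 without replicate 1.

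Of receptors and channels, trp, the light-activated cation channel of photoreceptors (3R, 29914521 to 29920289), had the highest CPM of the set, not adjusted for length. Its level was 805 to 2617 CPM (median 1845) at 18 °C, 2037 to 4307 CPM (median 3537) at 25 °C and 2714 to 5199 CPM (median 4286) at 29 °C. The lowest 29 °C library exceeded the highest 18 °C library by a small margin. Other eye markers were mostly higher as well, 15 higher and 3 lower of 23 tested at 29 °C against 18 °C. Their median log2 difference was 0.32, and 38.0% of all genes tested were higher and 36.5% lower. GluRIIC, a glutamate receptor subunit of the neuromuscular junction, averaged 13.5 ± 1.88 CPM at 29 °C against 3.88 ± 0.547 CPM at 18 °C, and Ilp3, an insulin-like peptide of brain neurosecretory cells, 14.6 ± 2.37 against 7.03 ± 1.40 CPM (SD, n = 24 each). Ilp5, made in the same cells and outside the set, was at 13.4 CPM against 20.7 CPM (log2 difference -0.62 ± 0.07 SE, edgeR quasi-likelihood, adjusted p = 1.3e-12), and Ilp2 at 131 against 127 CPM (adjusted p = 0.444).

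Per kilobase of exon, the 29 °C levels of the 5 members with the highest CPM ordered differently: MtnA reached 1645 CPM per kb, trp 987, Npc2g 670, CG42369 282 and sxe2 207.

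Nuclear members varied little between libraries. pre-lola-G, an annotated transcript unit inside the lola transcription factor locus (2R, 10481894 to 10485252), had 2.59 to 5.10 CPM (median 4.10) at 18 °C, 12.2 to 20.2 CPM (median 15.3) at 25 °C and 16.8 to 29.4 CPM (median 23.5) at 29 °C. Neither warm group reached down to the 18 °C range. It shares 60.9% of its exonic bases with lola on the same strand, and lola itself was at 373 CPM against 410 CPM (29 and 18 °C). sage, a helix-loop-helix factor known from the salivary gland, had medians of 1.66, 5.36 and 8.89 CPM in the order 18, 25 and 29 °C. The zinc finger factor Sry-delta averaged 27.8 ± 1.95 CPM at 29 °C against 10.8 ± 1.04 CPM at 18 °C, the heterochromatin protein HP4 12.7 ± 1.24 against 5.82 ± 0.745 CPM, the Smc5/6 complex subunit Nse4 8.91 ± 0.684 against 4.43 ± 0.619 CPM, and Meics 12.3 ± 1.25 against 6.07 ± 0.691 CPM (SD, n = 24 each). In translation, eIF3h averaged 264 ± 20.4 against 127 ± 9.54 CPM and the mitochondrial release factor mRF1 11 ± 1.12 against 5.05 ± 0.787 CPM.

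Among the other named genes, Sps1, of the selenophosphate synthetase family, had 4.65 to 8.36 CPM (mean 6.51) at 18 °C, 17.7 to 28.2 CPM (mean 24.6) at 25 °C and 27.7 to 37.7 CPM (mean 31.3) at 29 °C. Its 18 °C libraries stood clear of all others. Nepl17, a neprilysin-like peptidase, had medians of 0.988, 3.38 and 7.06 CPM, and Vajk4 2.32, 8.04 and 9.89 CPM. tobi, an alpha-glucosidase gene named as a target of brain insulin, averaged 9.85 ± 3.23 CPM at 29 °C against 3.84 ± 0.625 CPM at 18 °C, and its ratio was 3.26 in replicate 2 and 1.93 in replicate 1. Of 26 other sugar metabolism genes tested, 5 were higher and 16 lower at 29 °C than at 18 °C (edgeR quasi-likelihood, adjusted p under 0.05). The shares over all genes tested were 38.0% higher and 36.5% lower. The remainder of the group covered a pyrimidine synthesis enzyme (r, ratio 2.09), the BMP-activating protease tld (3.22), an esterase (Est-Q, 2.16) and a cullin (Cul6, 2.24). It also held a dynein arm assembly factor (Dnaaf5, 2.27), the muscle M-line gene MnM (2.04), and Hez, whose row is identical to that of CG6709 (2.48). Last was Reg-2 (3.20), named as a rhythmically expressed gene but not called rhythmic here in any condition (edgeR adjusted p = 0.793 in LD).

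Of the 37 uncharacterised members, CG34291, CG34456, CG5883, CG34166 and CG8908 were among the 15 with the highest ratios. CG34456 (3L, 9362108 to 9362734) lies 9987 bases from CG4456 and had 0.757 to 3.13 CPM (median 2.34) at 18 °C, 4.48 to 15 CPM (median 11.8) at 25 °C and 7.83 to 23.9 CPM (median 18.8) at 29 °C. Its 25 and 29 °C libraries all lay above 18 °C. CG34291 (3R, 26425290 to 26425781) was low throughout, with medians of 0.785, 3.06 and 8.21 CPM. CG5883 (3L, 11943640 to 11944852) had medians of 1.79, 10.8 and 11.9 CPM, and CG8908 3.67, 10.4 and 15.5 CPM.

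CG34166 (2L, 14743193 to 14743879) depended on the replicate number. At 18 °C its mean was 24 CPM in replicate 1, higher at 12 of 12 time points, and 8.55 CPM in replicate 2, whereas at 29 °C the means were 89.2 and 126 CPM. The ratio was therefore 3.71 in replicate 1 and 14.7 in replicate 2. Over the whole set, 9 members had a ratio in replicate 2 more than 1.5 times that in replicate 1, and 0 the other way round. Replicate 1 alone gave a ratio under 2 for 13 members and replicate 2 alone for 5, the lowest being 1.52 for CG43085 in replicate 1.

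Overlapping annotation limited several non-coding members. The snoRNA Me18S-G1358c lies wholly inside RpL15, and libraries of polyadenylated RNA are not made to capture such RNAs. The antisense RNA CR44509 lies opposite Obp56e, which had a ratio of 2.61, and CR45479 opposite Cyp4d14 with 2.34, close to their own ratios of 2.67 and 2.12. Main partners of the other 4 antisense members (fbl, fuss, Csk and Trf4-1) had ratios of 0.805 to 1.03, against 2.08 to 2.86 for the antisense RNAs. CG3984 lies entirely opposite the antisense RNA CR45600, whose ratio was 0.747 against its own 3.11. In all, 34 members shared exonic bases with another gene, 10 of them on the same strand and 26 on the opposite one.

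Members were spread over all large chromosome arms, with 7 on X (7.45% of members, 16.5% of genes tested), 16 on 2L, 21 on 2R, 29 on 3L (30.9% of members, 19.0% of genes tested), 20 on 3R and 1 on chromosome 4. There were 5 pairs of members within 10000 bases of each other: CG17107 with CG7294, CG10332 with IM18, CG34456 with CG4456, Hez with CG6709, and CecA1 with CecA2. These shares were not tested.

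The step from 18 to 25 °C held more of the difference than the step from 25 to 29 °C. Each member's share was the log2 ratio of its 25 to 18 °C means over that of its 29 to 18 °C means. The median share was 74.9% (quartiles 66.6 and 83.5%). At each of the 12 time points, the members' median log2 ratio of 25 to 18 °C was also divided by that of 29 to 18 °C. This quotient had an SD of 4.06 percentage points over the time points. An equal change per degree over the 7 and 4 °C steps would give a share of 63.6%. Expressed per degree, the median log2 change was 0.14 below 25 °C and 0.08 above it, and 77 members were steeper below and 17 steeper above. Genes that met the same rule with a ratio of 1.2 to 2 (n = 1281) had a median share of 68.0%, with 804 steeper below and 477 above. Membership used all 3 means, so no test was made.

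With both replicates pooled, MsrA had 96.8% of its log2 difference below 25 °C, CG43064 95.0%, the antisense RNA CR44509 94.9% and the antisense RNA CR44137 93.0%. In replicate 1 the 25 °C mean of MsrA, CG43064 and CR44137 exceeded the 29 °C mean (289 against 276 CPM for MsrA, listed in the order 25 and 29 °C), and all 3 left the set without replicate 2. MsrA, CR44509 and CR44137 also left it on day 4 alone. At the other end of the pooled order, CecA2 had 11.2%, CecA1 34.5%, Dro 38.2% and arg 38.7%. These low shares depended on the replicate number. Dro had means of 111, 108 and 219 CPM at 18, 25 and 29 °C in replicate 1, and of 83.4, 151 and 197 CPM in replicate 2, where its share was 69.2%. In replicate 2 the share was 56.4% for CecA1, 53.4% for arg and 40.7% for CecA2, while in replicate 1 CecA1, CecA2 and Dro were lower at 25 °C than at 18 °C.

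The immune group had a pooled median share of 61.2%, with 7 of its 10 rows steeper above 25 °C, against 10 of the other 84 members. The replicates went opposite ways in this. In replicate 1, all 10 immune rows were steeper above 25 °C (median share 29.5%), against 7 of the other 84 members (median 77.0%). In replicate 2, 2 of 10 immune rows were, CecA1 and CecA2 (median 68.8%), against 17 of the other 84 (median 74.4%). Drs, for example, had 38.3 CPM at 25 °C and 92.6 CPM at 29 °C in replicate 1, but 72.6 and 82.3 CPM in replicate 2, and SPH93 in replicate 2 had 13.1 CPM at 25 °C and 9.67 CPM at 29 °C. Over all 94 members the median share was 76.4% in replicate 1 and 74.4% in replicate 2. With replicates pooled, lipid genes (median 78.9%), nuclear genes (74.7%), non-coding RNAs and pseudogenes (81.2%), redox and metal genes (90.5%) and translation genes (79.7%) had no member that was steeper above 25 °C.

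**Figure D3:**
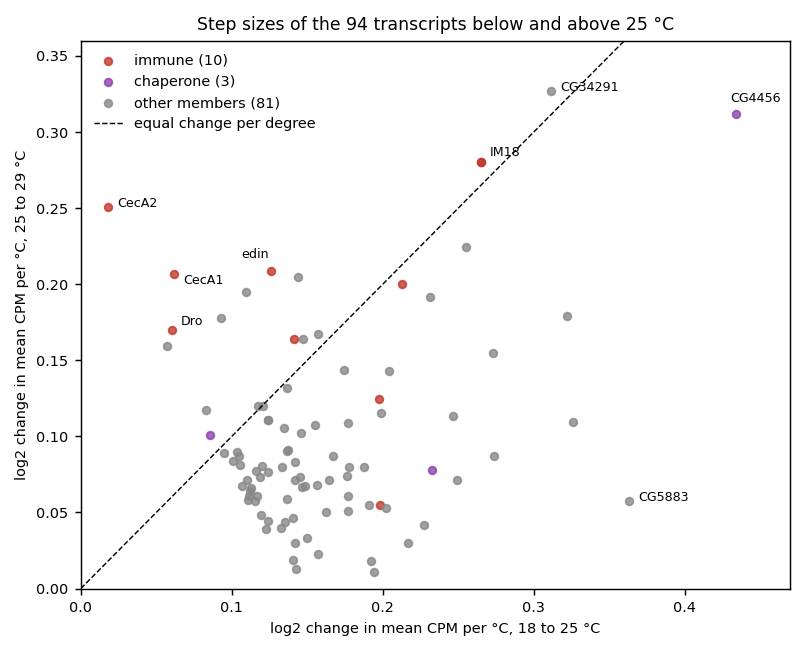
Each point is 1 of the 94 transcripts; the horizontal axis is the log2 change of mean CPM per degree between 18 and 25 °C and the vertical axis the same between 25 and 29 °C, with the dashed line at equal change per degree. Means are pooled over both replicates; 77 points lie below the line, and CecA2, CecA1 and Dro stand at the far left above it, a position that holds in replicate 1 and not for Dro in replicate 2.

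The light-dark cycle and darkness at 25 °C were compared to ask how light cycles changed levels at a constant temperature. The LD libraries played no part in choosing the members, whereas the 25 °C DD libraries did. By the edgeR quasi-likelihood test with Benjamini-Hochberg adjustment over 10702 genes, 35 of 94 members (37.2%) differed, where 22.8% of all genes did. Of these, 34 were lower in LD (36.2%, against 11.2% of all genes lower) and 1 was higher (1.06%, against 11.6% higher). The median log2 difference, LD minus DD, was -0.14 over the members and 0.00 over all genes tested. Means in LD were below those in 25 °C DD for 77 members and above for 17, and they lay between the 18 and 29 °C means for 92 members and above the 29 °C mean for 2.

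CG4456 fell most. It had 10.6 to 31.9 CPM (median 16.4) in LD against 14.5 to 105 CPM (median 42.4) in DD at 25 °C, a log2 difference of -1.44 ± 0.12 (SE, adjusted p = 3.93e-16). The highest LD library was below the DD median. CG5883 had 1.86 to 8.79 CPM (median 4.12) in LD against 3.98 to 13.9 CPM (median 10.8) in DD (-1.24 ± 0.13, adjusted p = 4.39e-13). pre-lola-G had 6.61 to 13.2 CPM (median 10.3) against 12.2 to 20.2 CPM (median 15.3), with almost separate ranges and a log2 difference of -0.63 ± 0.06 (adjusted p = 2.97e-15). Vajk4 had a median of 5.13 CPM in LD against 8.04 CPM in DD (-0.71 ± 0.13, adjusted p = 1.22e-05).

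IBIN had 0.102 to 15.9 CPM (median 3.31) in LD against 0.180 to 24.3 CPM (median 7.62) in DD, and its difference of -0.92 ± 0.31 passed the test (edgeR, adjusted p = 0.023) despite wide overlap. It was not called without replicate 2, nor on day 4 or day 5 alone. The only member called higher was CG17107, an uncharacterised gene on 2L, with 4.79 to 9.05 CPM (median 7.07) in LD against 3.36 to 7.79 CPM (median 5.81) in DD (0.23 ± 0.08, adjusted p = 0.0187). It too was not called without replicate 2 or on a single day.

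The fall was small for most called members, with a median of -0.26 and a smallest of -0.10, and 6 fell by more than 1.5-fold. By role, 0 of 2 redox and metal genes and 0 of 6 enzymes of amino and organic acid breakdown were called lower. All 3 members grouped as chaperones, 4 of 6 nuclear genes, both translation genes and 2 of 3 signalling and channel genes were. So were 4 of 8 non-coding members, 1 of 10 immune rows, 1 of 4 lipid genes, 6 of 13 other named genes and 11 of 37 uncharacterised genes. The share over all genes tested was 11.2%. Calls also depend on the spread between libraries, so a member not called may still be lower. Among members not called, Sardh had -0.19 ± 0.09, SPH93 -0.57 ± 0.31 and Hao 0.03 ± 0.08 (SE). Differences between roles were not tested. Examples were sage (-0.33 ± 0.07, adjusted p = 2.73e-04), Ilp3 (-0.30 ± 0.07, adjusted p = 1.13e-03), sxe2 (-0.21 ± 0.04, adjusted p = 2.42e-04) and Sps1 (-0.19 ± 0.04, adjusted p = 3.32e-04). Eye markers summed to a median of 78650 CPM in LD against 95930 CPM in DD at 25 °C. The eye marker ninaE by itself had medians of 33300 and 54700 CPM in that order. Of 23 eye markers tested outside the set, 4 were higher and 4 lower in LD (11.6% and 11.2% of all genes tested). Glia markers summed to 2827 CPM in LD against 2551 CPM in DD. The part of eye and glia markers in the differences of the members was not tested. Without replicate 2, 18 members were called, all lower, where 7.57% of all genes were called.

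**Figure D4:**
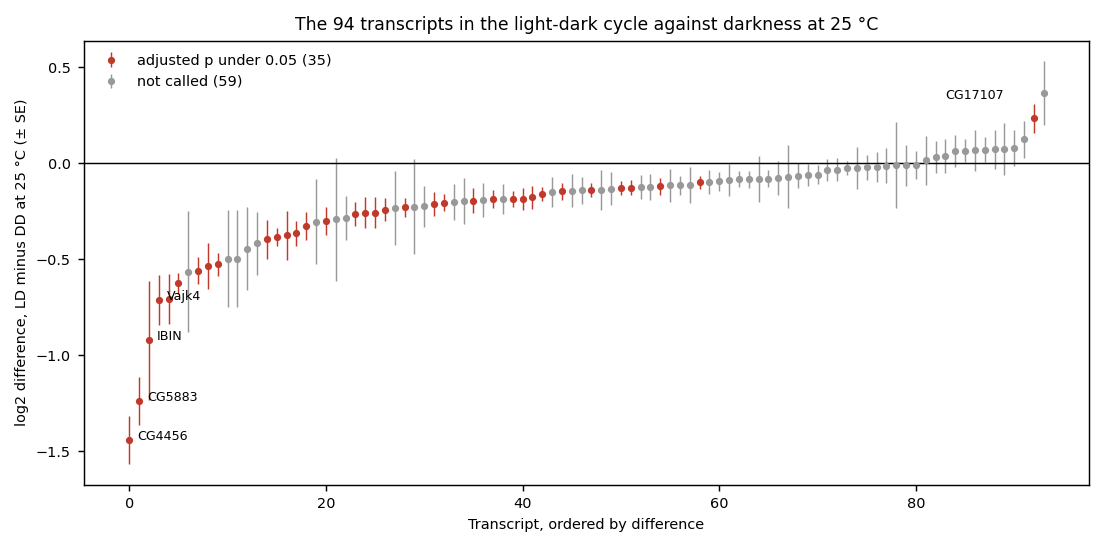
Log2 difference between the light-dark cycle and darkness at 25 °C for the 94 transcripts, ordered by size, with bars of 1 SE; red points have an adjusted p under 0.05 in the edgeR test (35) and grey points do not (59). The points lie mostly below 0, with CG4456 at -1.44 lowest and CG17107 at 0.23 the single red point above.

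Daily rhythms were tested within each condition through a 24 h cosine and sine, which the choice of members did not use. In LD, 25 of 94 members (26.6%) were rhythmic, against 14.2% of all genes tested (edgeR quasi-likelihood, adjusted p under 0.05). The amplitude, the log2 distance from mean to peak, had a median of 0.47 over these 25 and 0.21 over all rhythmic genes. Peaks fell in all parts of the day, 6 before hour 6, 4 from hour 6 to 12, 8 from hour 12 to 18 and 7 after hour 18. The labels do not say when lights came on.

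The uncharacterised gene CG15080 (2R, 18783299 to 18794594) had the highest amplitude, 1.64 ± 0.13 (SE), peaking at hour 20.8 (adjusted p = 1.87e-17). Its level ran between 0.558 and 12.2 CPM (median 3.0) in LD and between 2.17 and 9.90 CPM (median 5.59) in DD at 25 °C, where it was not called rhythmic (edgeR adjusted p = 0.855). For Drs the amplitude was 0.94 ± 0.22 and the peak at hour 14.6 (adjusted p = 4.49e-03), and GNBP-like3 0.60 ± 0.17 at hour 13.9. The Drs rhythm was not called without replicate 2 or on day 5 alone.

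Several enzymes peaked close together. Hpd reached its peak at hour 4.07 with an amplitude of 0.78 ± 0.06, hgo 0.64 ± 0.06 at hour 4.78, and sxe2 0.38 ± 0.04 at hour 4.86, so the tyrosine breakdown pair peaked less than 1 h apart. CG9377 peaked at hour 4.78 (amplitude 0.92 ± 0.11), CG9757 at hour 23.1 (0.86 ± 0.06) and CG3348 at hour 11.1 (0.88 ± 0.12). CG4456 cycled with an amplitude of 0.49 ± 0.13 and a peak at hour 16.5 (edgeR adjusted p = 0.0125), and was not called on a single day.

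**Figure D5:**
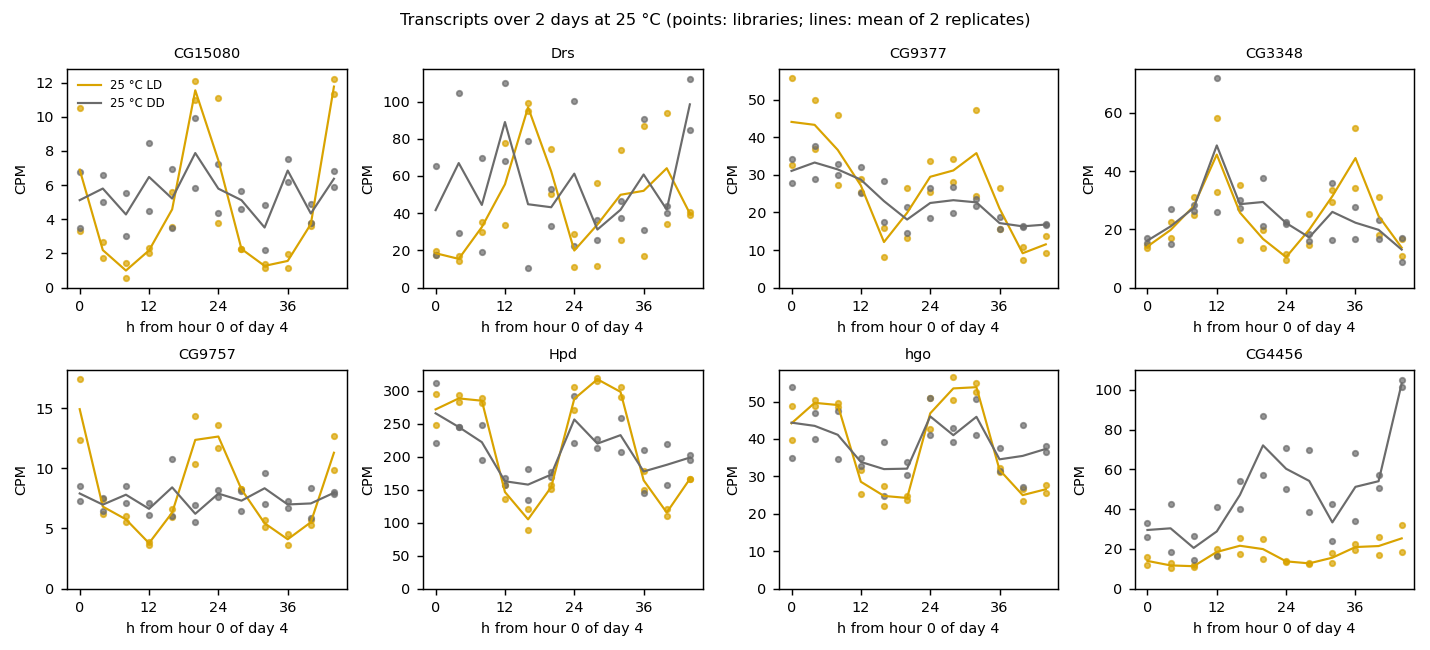
CPM of 8 transcripts over days 4 and 5 at 25 °C in the light-dark cycle (yellow) and in darkness (grey); points are libraries and lines join the means of 2 replicates, with hours counted from hour 0 of day 4. CG15080 and CG9757 swing in the light-dark cycle and stay flatter in darkness, while CG4456 lies higher in darkness.

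In darkness few members were rhythmic. At 18 °C, 0 of 94 were called by edgeR, with 8 at an unadjusted p under 0.05 and 1 by DESeq2, where 0.196% of all genes were called. At 25 °C, 2 were called against 0.439% of all genes: CG4456, with an amplitude of 0.67 ± 0.12 and a peak at hour 19.8 (edgeR adjusted p = 7.14e-04), and Hpd, with 0.32 ± 0.06 and a peak at hour 2.84 (adjusted p = 2.27e-03). Leaving out replicate 1 or replicate 2 gave 1 call each at 25 °C, and day 4 or day 5 alone gave 0. At 29 °C, 0 were called by edgeR or DESeq2, with 4 at an unadjusted p under 0.05, against 0.14% of all genes. The difference in rhythm between conditions was not tested.

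Levels also moved between the days of sampling. Averaged over the 3 temperatures in darkness, 8 members differed between day 5 and day 4 (8.51%, against 3.62% of all genes), 6 higher (1.99% of all genes higher) and 2 lower (1.63% lower). CG4456 was higher on day 5 by 0.48 ± 0.11 on the log2 scale (edgeR adjusted p = 3.06e-03), CG16898 by 0.29 ± 0.09, Hao by 0.25 ± 0.07, Sardh by 0.24 ± 0.07, r by 0.21 ± 0.05 and CG17224 by 0.19 ± 0.05. CG43085 was lower by a log2 difference of -0.68 ± 0.12 (adjusted p = 7.4e-05) and l(2)efl by -0.24 ± 0.05 (adjusted p = 1.58e-03), so l(2)efl and the row shared by CG4456 and Hsp22 went opposite ways. This count rested on the replicate number: without replicate 1, 5 members differed, 1 higher and 4 lower, and without replicate 2, 20 differed, 17 higher and 3 lower.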

How the data were processed

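RNA-seq of fly heads had been deposited as 1 table of estimated counts per gene, without normalisation; 40.2% of the values above 0 are fractional, and 0 columns were left without a sample. The authors' tools were fastp 0.23.2, HISAT2 2.2.1, featureCounts and Subread 2.0.8, per the submitters' processing notes; genome build, annotation and strand setting are not given in the sources used here. Libraries were strand-specific (NEBNext Ultra II Directional), per the labels' protocols. Symbols and positions came from BDGP6.54, which may not be the authors' build, and 17606 of 17610 identifiers matched.

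CPM used column totals. Counts were rounded before edgeR 4.0.16 (limma 3.58.1, R 4.3.3) with TMM scaling: filterByExpr kept 10702 of 16896 genes with any count, and 1 quasi-likelihood model of 96 libraries gave each condition its mean, its 24 h cosine and sine, and its day shift (16 columns, 80 residual degrees of freedom, prior 4.76). Calls use a Benjamini-Hochberg adjusted p of 0.05 over all genes tested. The fits were tested on simulated data. DESeq2 1.42.0, its size factors, other filters, each replicate or day left out and a replicate block were alternatives. Depth limits precision, and without molecular identifiers amplified copies of a molecule cannot be told from separate molecules. The labels call the replicates biological without naming separate cultures, so p-values measure the spread between these libraries.

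The members and gene lists were chosen with earlier results of these data known. Named members were those with the 15 highest ratios, the 5 highest levels and the 3 nearest the threshold on each side. The 4 highest and 4 lowest step shares, the leading calls of each test, and list members were also named. Others, named for their role or their pattern, were picked after their values were seen. Where libraries share day, hour and replicate number, deviations from the fitted condition curves were correlated across genes. For LD and DD at 25 °C, r exceeded 0.1 in 18 of 24 pairs. Its median was 0.196, against -0.00987 for libraries of the other replicate number. Same-numbered libraries thus shared part of their deviation, and the main model held no replicate term. The replicate block was an alternative fit.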

Additional observations from a re-analysis of the deposited data

How the results depend on the processing

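The set held 94 genes. It held 84 to 101 without a replicate, 84 on day 4 alone, 108 on day 5 alone, 96 with TMM scaling, 67 at a minimum of 10 CPM and 785 with no minimum, which admits genes of very low counts. Between LD and DD (35 called), leaving out a replicate gave 18 to 30 calls, day 4 alone 15 and day 5 alone 18, with 0 to 2 higher in every alternative. For LD rhythms (25) the values were 15 to 22, 12 and 11. Fewer libraries enter these fits. Rhythms in darkness numbered 1 at 18 °C with DESeq2 and 1 with a replicate block (0 reported), 1 without replicate 1, 1 without replicate 2 and 0 on either day alone at 25 °C (2 reported), and 0 to 2 without a replicate at 29 °C. Day calls (8) ran from 5 to 20 without a replicate. A replicate block gave 13 day calls, 46 between LD and DD, 28 LD rhythms and 3 rhythms at 25 °C in darkness. The balance of day calls turned from 6 higher and 2 lower to 1 higher and 4 lower without replicate 1. Among the members named by rank, call or list, no difference changed sign while called. The day-called members Sardh, r and CG17224 were not part of that check. Single values and list counts were recomputed as well. A tested value counted as the same if it kept its side of the threshold. For a log2 ratio the limit was its SD over the 12 time points, and for a list count 1.5-fold. By these limits 1539 stayed the same, 52 lost a call, 28 gained one and 19 moved. The cause was not tested. Below 1 CPM, where several members lie at 18 °C, a library holds few counts and its value is uncertain.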
